A study of Mus musculus with 30 samples.

Results

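The genes described here are 9 genes of the integrated stress response: Atf4, Ddit3, Chac1, Trib3, Asns, Sesn2, Atf3, Ppp1r15a and Psat1. They were taken by symbol, through the Ensembl identifiers of the count table, and 10 of its 55471 rows carried one of these symbols. The tenth row was a second Ddit3 record of 105 exonic bases that held 0 counts and was not tested. The 9 main records each had at least 154 counts in every library, and all 9 passed the filter on low counts that left 15505 genes for testing.

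The libraries were made from MC38 tumours. MC38 is a mouse colon carcinoma line, here grown under the skin of female C57BL/6 mice aged 6 to 8 weeks. The tumour cells were unmodified (WT) or carried loss-of-function mutations in B2m (B2mKO), which encodes the light chain of MHC class I, or in Jak1 (Jak1KO), a kinase of interferon receptor signalling. Mice received 100 µg of aPD1, an antibody that blocks the inhibitory PD-1 receptor of T cells, or of IgG1 as isotype control, into a vein on days 7, 10 and 13, and RNA was taken from about 50 mg of whole tumour on day 14. The 6 groups had 5 libraries each, 30 in all. The labels count 30 samples and do not say whether each is a separate mouse, so the p-values cover the spread between samples, which may be partly technical. The number of clones behind each mutant line is not given either, so the mutation and other differences between the lines cannot be told apart. The mice themselves had intact B2m and Jak1 as far as the labels go, so host cells in a mutant tumour carry both genes.

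The integrated stress response is a pathway in which kinases that sense amino acid shortage, unfolded protein in the endoplasmic reticulum, double-stranded RNA or haem deficiency phosphorylate the translation initiation factor eIF2. General translation then slows while the mRNA of the transcription factor ATF4 is translated more, and ATF4, often with C/EBP partners, raises genes for amino acid supply, for redox balance and for the ending of the response. Because ATF4 is controlled largely at translation, the level of its mRNA is one part of its regulation. Tumour cells are known to depend on this pathway when nutrients or oxygen are short.

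ATF4 and C/EBP proteins bind together at a composite sequence whose core is written here as TGATGNAA. The core was searched on both strands in RefSeq promoter windows (build GRCm38.p6) from 250 bases before to 50 bases after each start. It was present in 4 of the 9 genes and in 3.97% of all 32851 windows. The first matched base, counted from the RefSeq start, was at -193 in Chac1, -110 in Atf3, -23 in Asns and 15 in Trib3. The cAMP response element TGACGTCA was found in Ppp1r15a, at -12, and in 1.79% of all windows. The other members had neither sequence in this window, which says only that these letters are not there. The promoter stretches of the 4 genes with the core are shown because Chac1, Trib3 and Asns are among the members whose level differed between genotypes, while Atf3 is not. Capitals mark the core, on either strand, and each line reads 5′ to 3′ along the gene's strand.
Chac1, chr2:119350992-119351241, plus strand: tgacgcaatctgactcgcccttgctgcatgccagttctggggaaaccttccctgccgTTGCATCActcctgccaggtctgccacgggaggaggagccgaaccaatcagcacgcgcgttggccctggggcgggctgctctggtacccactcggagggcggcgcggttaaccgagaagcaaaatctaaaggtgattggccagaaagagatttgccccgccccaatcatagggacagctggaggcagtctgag
Asns, chr6:7693210-7693459, minus strand: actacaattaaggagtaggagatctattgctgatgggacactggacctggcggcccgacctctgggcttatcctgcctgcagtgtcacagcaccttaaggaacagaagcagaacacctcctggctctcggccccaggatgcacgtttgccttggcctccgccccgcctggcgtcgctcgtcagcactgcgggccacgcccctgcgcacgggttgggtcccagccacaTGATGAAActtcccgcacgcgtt
Atf3, chr1:191183334-191183583, minus strand: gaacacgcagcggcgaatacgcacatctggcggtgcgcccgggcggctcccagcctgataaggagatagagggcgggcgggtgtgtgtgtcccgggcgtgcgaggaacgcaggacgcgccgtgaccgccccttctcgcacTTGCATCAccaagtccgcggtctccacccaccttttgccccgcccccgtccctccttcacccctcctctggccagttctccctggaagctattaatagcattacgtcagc
Trib3, chr2:152344028-152344057, minus strand: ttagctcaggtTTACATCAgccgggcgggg
The RefSeq start used for Atf3 lies inside the longer Ensembl record of that gene.

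Library totals ran from 17629795 to 25944701 assigned counts. The targeted genes followed the labels: B2m lay at 500.9 to 747.1 CPM (counts scaled to the library total) in the B2mKO IgG1 libraries against 1965 to 4176 in WT IgG1, and Jak1 at 64.4 to 77.2 CPM in Jak1KO IgG1 against 182 to 255 in WT IgG1. B2m was below WT in Jak1KO IgG1 as well, at 1099 to 1338 CPM, while Jak1 was at 276 to 323 CPM in B2mKO IgG1. Markers of colon epithelium were scarce in these tumours, with a summed level of 2.03 to 31.3 CPM over 8 markers and Cdx2 at 0 in every group. The libraries WT IgG1 replicate 3 and B2mKO aPD1 replicate 2 stood apart from their groups, with root mean square log2 deviations from the group mean of 0.68 and 0.685 over the genes tested, against 0.237 to 0.463 for the others. The counts of members called are given with and without them, and the counts over related gene lists only in part.

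Per kilobase of exon, Atf4 was the most abundant of the 9 mRNAs, with a mean of 188 CPM per kb over the 30 libraries. Psat1, an enzyme of serine synthesis, followed at 112 CPM per kb, and Asns, which makes asparagine, at 79.4. Trib3, a pseudokinase that restrains ATF4, averaged 53.0 CPM per kb. Chac1, which breaks down glutathione, stood at 20.6, beside Ddit3, which encodes the transcription factor CHOP, at 20.3. Ppp1r15a, also called GADD34, a phosphatase subunit that removes the phosphate from eIF2, averaged 16.6 CPM per kb, Sesn2, a sensor that restrains mTORC1, 13.2, and the transcription factor Atf3 9.04. The ranges over the 30 libraries overlapped between every pair of neighbours in this order. Atf3 varied most inside groups, with a coefficient of variation from 29.2% to 70.8%, and that of Atf4 ran from 6.48% to 28.0%.

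**Figure D1:**
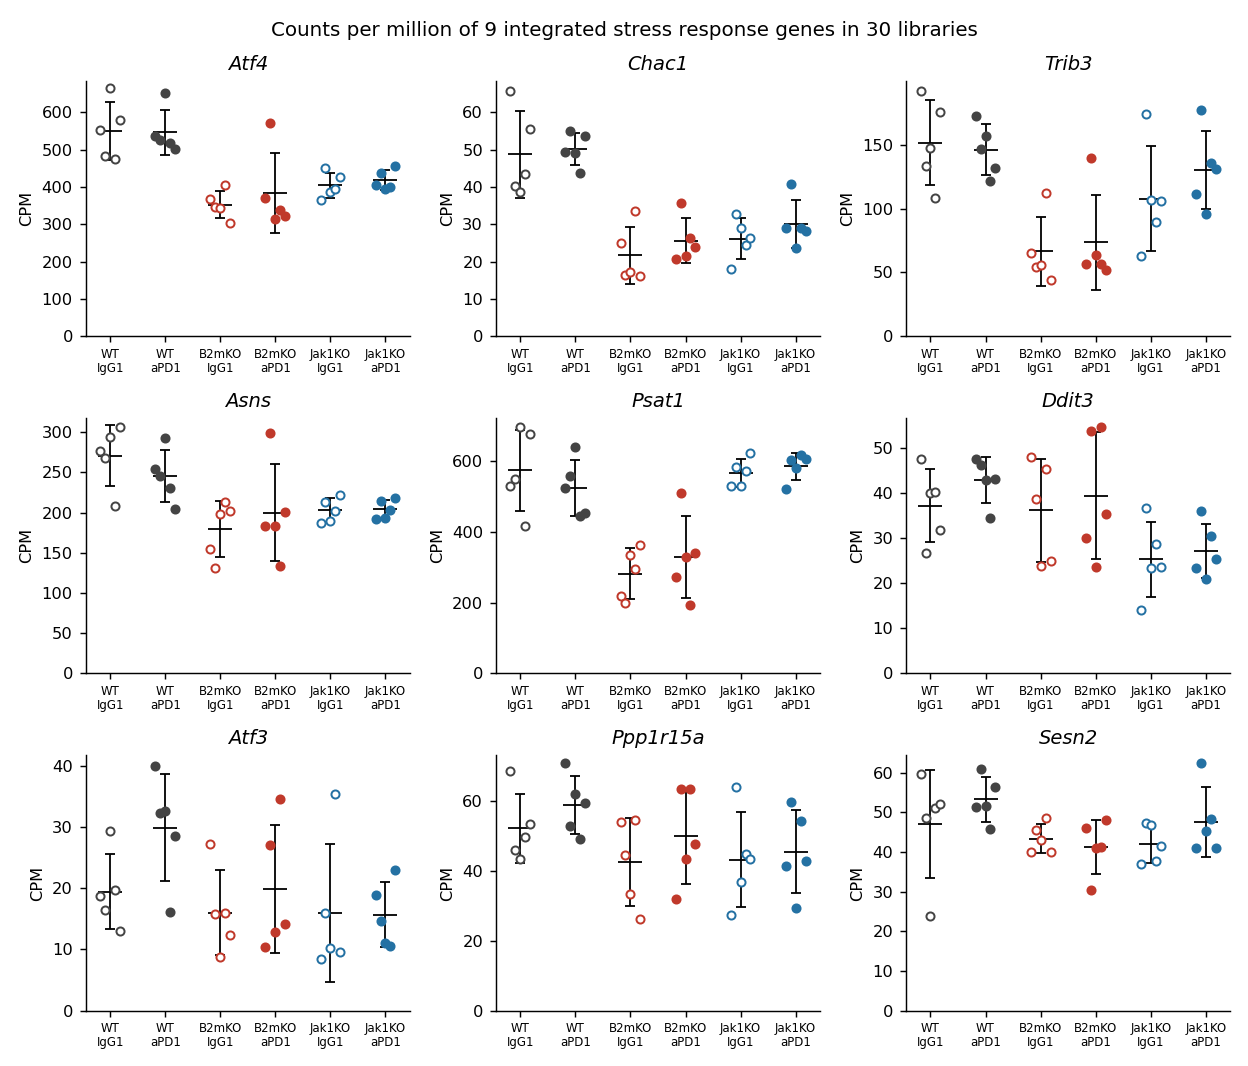
Level of each of the 9 genes in every library, in CPM, by genotype; open circles are IgG1, filled circles are aPD1, and bars give the group mean ± SD (n = 5). The Chac1 libraries of WT tumours, from 38.6 to 65.8 CPM under IgG1, lie above those of B2mKO and Jak1KO tumours under the same antibody.

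Treatment with aPD1 was compared with IgG1 inside each genotype. In WT tumours 0 of the 9 genes passed edgeR's quasi-likelihood test at an adjusted p of 0.05, where 4.38% of all genes tested did in either direction and 3.73% were higher. The count was also 0 of 9 in B2mKO and in Jak1KO tumours, where 0% of all genes passed. DESeq2 and limma voom also called 0 members in each genotype, and 0 members had an unadjusted p under 0.05. The 27 log2 fold changes ran from -0.14 to 0.62, with standard errors from 0.127 to 0.374. The median over the 9 genes was 0.042 in WT, 0.155 in B2mKO and 0.072 in Jak1KO, beside -0.026, 0.004 and -0.002 over all genes tested.

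Atf3 gave the smallest p of these values, in WT tumours. Its level was 18.8, 16.5, 29.4, 19.7 and 13.0 CPM in the WT IgG1 libraries and 40.0, 32.4, 32.6, 16.2 and 28.5 CPM under aPD1. Most aPD1 libraries were higher, but the groups overlapped, and the log2 fold change of 0.62 ± 0.37 (SE, n = 5 per group) had an unadjusted p of 0.104 and an adjusted p of 0.38 in edgeR. Atf4 held 551 ± 77.7 CPM (SD, n = 5) in WT IgG1 and 547 ± 60.2 CPM (n = 5) in WT aPD1. Chac1 held 48.8 ± 11.7 and 50.2 ± 4.39 CPM in the same groups. In the same WT comparison, 11 of 14 interferon gamma response genes rose under aPD1.

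Whether the effect of aPD1 differed between genotypes was tested as an interaction. Again 0 of 9 members passed, for B2mKO minus WT, where 0.0967% of all genes did in either direction, and for Jak1KO minus WT, where 0% did. These 18 log2 differences ran from -0.65 to 0.35 and the smallest unadjusted p was 0.179, so edgeR gave 0 members under 0.05 before adjustment, and DESeq2 and limma voom called 0. The comparisons of antibody and of genotype share libraries, so they are not independent of each other.

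Between genotypes, all member values that passed the test were lower in the first-named mutant. Over all 11 comparisons, 16 of 99 values passed, 16 lower and 0 higher, beside 12.9% of all gene values called in either direction and 6.72% called lower. Of these, 13 were comparisons with WT and 3 were B2mKO against Jak1KO. The genes Atf4, Chac1, Trib3, Asns and Psat1 passed at least once, and Ddit3, Atf3, Ppp1r15a and Sesn2 never did. In bulk tumour RNA, fewer cells of a type and less RNA per cell cannot be told apart.

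In B2mKO against WT tumours under IgG1, 5 of the 9 members fell, where 11.7% of all genes were called lower and 9.4% higher. The median log2 fold change over the 9 genes was -0.59, beside -0.001 over all genes. Under aPD1, 4 of 9 fell, beside a background of 10.5% called lower and 9.86% higher, and the median was -0.51 beside -0.003. The libraries of B2mKO and WT did not overlap for Atf4, Chac1 and Psat1 under IgG1, which was 3 of 9 where 6.35% of all genes were lower without overlap, and for Chac1 alone under aPD1, 1 of 9 beside 6.66%.

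Atf4, the transcription factor of the response, was at 553, 482, 664, 475 and 579 CPM in the WT IgG1 libraries and at 366, 345, 345, 404 and 304 CPM in B2mKO IgG1. Every B2mKO library was below every WT library. The level fell by 0.64 ± 0.13 on the log2 scale (fold 0.641, edgeR adjusted p = 0.000684). Under aPD1 the WT libraries held 537, 526, 652, 518 and 501 CPM and the B2mKO libraries 370, 573, 315, 338 and 323 CPM. Replicate 2 of B2mKO aPD1 lay among the WT values and the other B2mKO libraries lay below them, and the log2 fold change was -0.51 ± 0.13 (edgeR adjusted p = 0.00497). It was -0.69 without both libraries that stood apart, and the call was lost with only the groups compared in the fit (-0.49, edgeR adjusted p = 0.0812).

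Chac1, the glutathione-degrading target of ATF4 and CHOP, was at 65.8, 40.2, 38.6, 43.5 and 55.6 CPM in WT IgG1 and at 25.1, 16.5, 17.3, 33.5 and 16.1 CPM in B2mKO IgG1. The 2 groups were separate, and the log2 fold change was -1.17 ± 0.20 (fold 0.445, edgeR adjusted p = 0.000122). The aPD1 libraries were separate as well, with 49.5, 55.0, 49.1, 43.8 and 53.6 CPM in WT and 20.8, 35.8, 21.4, 26.2 and 24.0 CPM in B2mKO. There the log2 fold change was -0.97 ± 0.20 (fold 0.511, edgeR adjusted p = 0.000773).

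Trib3, the feedback inhibitor, was at 192, 133, 148, 109 and 176 CPM in WT IgG1 and at 65.5, 54.6, 56.2, 112 and 43.8 CPM in B2mKO IgG1. B2mKO replicate 4 lay just above the lowest WT library, and the other B2mKO libraries were below all of WT. The log2 fold change was -1.19 ± 0.27 (fold 0.439, edgeR adjusted p = 0.0024), and -0.99 ± 0.27 under aPD1 (edgeR adjusted p = 0.00939). Under aPD1 the WT libraries ran from 122 to 173 CPM, and the B2mKO libraries were at 56.3, 139, 63.6, 56.5 and 52.1 CPM, of which replicate 2 alone reached the WT range.

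The amino acid enzymes also fell. Psat1 was at 528, 549, 695, 415 and 675 CPM in WT IgG1 and at 219, 198, 335, 295 and 362 CPM in B2mKO IgG1, with no overlap. Its log2 fold change was -1.02 ± 0.19 (fold 0.492, edgeR adjusted p = 0.000254). Under aPD1 it was -0.67 ± 0.18 (edgeR adjusted p = 0.0101), with B2mKO replicate 2 at 509 CPM inside the WT range of 444 to 637 CPM and the other B2mKO libraries between 194 and 341 CPM. This call was lost with only the groups compared in the fit (-0.65, edgeR adjusted p = 0.0773). Asns was at 276, 268, 294, 208 and 306 CPM in WT IgG1 and at 155, 131, 198, 213 and 202 CPM in B2mKO IgG1. One B2mKO library passed the lowest WT library, and the log2 fold change was -0.59 ± 0.15 (edgeR adjusted p = 0.00607). Under aPD1 Asns did not pass, with a log2 fold change of -0.30 ± 0.15 and an edgeR adjusted p of 0.173. There the B2mKO libraries held 183, 298, 183, 134 and 200 CPM and the WT libraries 205 to 293 CPM. Without B2mKO aPD1 replicate 2, the highest of them, Asns was at -0.47 with an edgeR adjusted p of 0.0111.

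The remaining 4 members did not pass in B2mKO against WT. Ddit3 gave log2 fold changes of -0.04 ± 0.24 under IgG1 and -0.12 ± 0.24 under aPD1. Ppp1r15a gave -0.30 ± 0.22 and -0.24 ± 0.22, Sesn2 -0.12 ± 0.16 and -0.37 ± 0.16, and Atf3 -0.28 ± 0.37 and -0.59 ± 0.37. A p that misses the threshold does not show that these 4 genes were alike in both genotypes.

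In Jak1KO against WT tumours, 2 of 9 members fell under IgG1, where 11% of all genes were called lower and 7.23% higher, and 2 of 9 under aPD1, where 12.4% were lower and 8.4% higher. They were Atf4 and Chac1 both times. The median over the 9 genes was -0.42 under IgG1 beside 0.002 over all genes, and -0.37 under aPD1 beside 0.02. The same 2 genes had no overlap between groups, under IgG1 (2 of 9 beside 8.09% of all genes) and under aPD1 (2 of 9 beside 10.3%).

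Atf4 was at 364, 451, 387, 394 and 427 CPM in Jak1KO IgG1, all below the lowest WT IgG1 library, with a log2 fold change of -0.45 ± 0.13 (fold 0.735, edgeR adjusted p = 0.0146). Under aPD1 it was at 405, 438, 395, 400 and 456 CPM, again all below WT, with -0.38 ± 0.13 (edgeR adjusted p = 0.0313). The call of Atf4 was sensitive to single libraries. Without WT IgG1 replicate 3, the highest library, the IgG1 value was -0.37 with an adjusted p of 0.0551 in edgeR. Under aPD1 the edgeR adjusted p was 0.104 without WT replicate 3, and 0.0578, 0.0735 and 0.0733 without Jak1KO replicates 1, 3 and 4. When 1 library was left out, 1 to 3 members passed under IgG1 and 1 to 4 under aPD1, the most under aPD1 without WT replicate 4, where Ddit3 and Atf3 passed too.

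Chac1 was at 17.9, 32.8, 29.1, 24.5 and 26.4 CPM in Jak1KO IgG1 and at 29.0, 40.9, 23.8, 28.9 and 28.1 CPM in Jak1KO aPD1. Each of these groups was below the WT libraries of the same antibody. The log2 fold changes were -0.90 ± 0.20 (fold 0.536, edgeR adjusted p = 0.00173) and -0.74 ± 0.20 (edgeR adjusted p = 0.00748). Chac1 passed in all 18 alternatives of both comparisons. It was the member lower in both mutants, under both antibodies, without overlap in any of the 4 comparisons with WT.

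Psat1 did not follow this pattern in Jak1KO tumours. It was at 530, 582, 528, 570 and 622 CPM in Jak1KO IgG1, inside the WT range of 415 to 695 CPM, with a log2 fold change of -0.01 ± 0.18 (edgeR adjusted p = 0.965). Under aPD1 the 5 Jak1KO libraries held 521 to 617 CPM and the log2 fold change was 0.16 ± 0.18 (edgeR adjusted p = 0.591). Several others came near the threshold without passing. Ddit3 was at 14.1, 36.7, 23.5, 28.8 and 23.6 CPM in Jak1KO IgG1 against 26.8 to 47.6 CPM in WT IgG1, with a log2 fold change of -0.56 ± 0.24 (edgeR adjusted p = 0.105). Under aPD1 it gave -0.66 ± 0.24 with an edgeR adjusted p of 0.051, and it passed in 8 of 18 alternatives. Asns gave -0.42 ± 0.15 under IgG1 (edgeR adjusted p = 0.0534) and Atf3 -0.93 ± 0.37 under aPD1 (edgeR adjusted p = 0.0763).

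The 2 mutants were then compared with each other. Under IgG1, 1 of 9 members was lower in B2mKO than in Jak1KO, where 14% of all genes were called lower and 14.5% higher, and under aPD1, 2 of 9, where 13.6% were lower and 15.1% higher. The median over the 9 genes was -0.175 under IgG1 and -0.125 under aPD1, beside -0.02 and -0.01 over all genes. Psat1 was the member called under both antibodies, with log2 fold changes of -1.01 ± 0.19 (fold 0.497, edgeR adjusted p = 0.000127) and -0.83 ± 0.18 (fold 0.562, edgeR adjusted p = 0.00111). Its B2mKO libraries all lay below all Jak1KO libraries, which held for 1 of 9 members under each antibody, beside 15% and 10.6% of all genes.

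Trib3 was the second member called, under aPD1. It was at 111, 177, 95.6, 136 and 131 CPM in Jak1KO aPD1, and the log2 fold change of B2mKO against Jak1KO was -0.82 ± 0.27 (edgeR adjusted p = 0.022). The B2mKO replicate 2, at 139 CPM, lay above 4 of the 5 Jak1KO libraries. Under IgG1 the Jak1KO libraries held 63.0, 174, 107, 89.4 and 106 CPM, and the log2 fold change of -0.70 ± 0.27 had an edgeR adjusted p of 0.052. The aPD1 call was lost without B2mKO replicate 1, 4 or 5 or Jak1KO replicate 2. Under IgG1, Trib3 passed as well without B2mKO replicate 4 or Jak1KO replicate 1, which made 2 members lower. Ddit3 leaned the other way, at 0.51 ± 0.24 and 0.54 ± 0.24, and passed under neither antibody (edgeR adjusted p = 0.113 and 0.095), though it did without Jak1KO IgG1 replicate 2 or B2mKO aPD1 replicate 3 (edgeR adjusted p = 0.0423 and 0.0347).

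**Figure D2:**
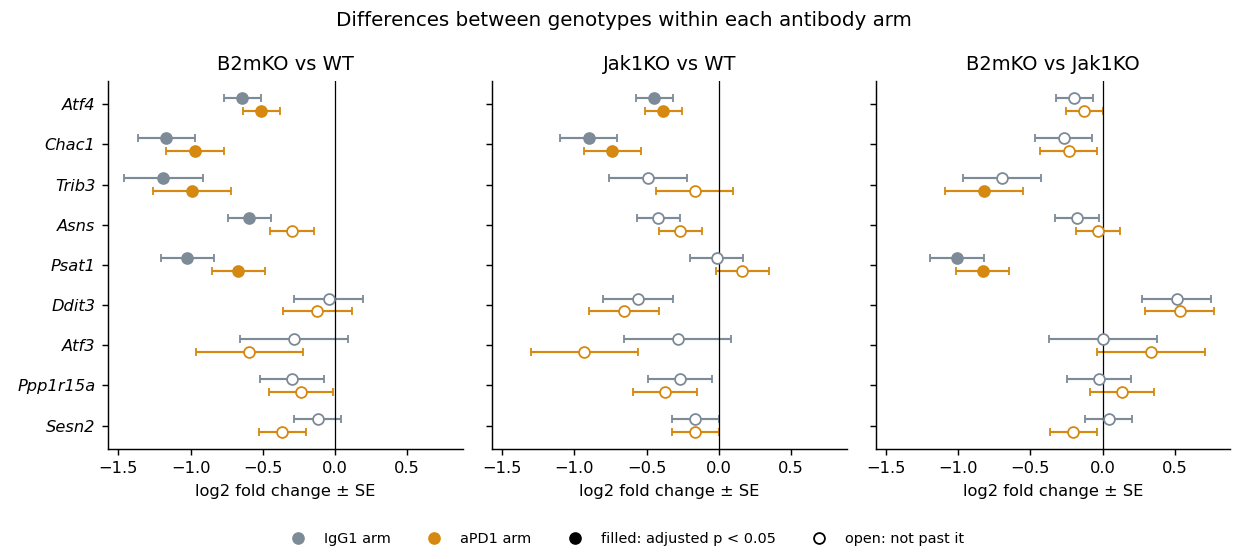
Log2 fold change ± SE of the 9 genes for B2mKO against WT, Jak1KO against WT and B2mKO against Jak1KO, under IgG1 (grey) and aPD1 (orange); filled points have an adjusted p under 0.05. Chac1 and Atf4 are filled in both mutants against WT, and Psat1 is near 0 in Jak1KO against WT and at -1.02 in B2mKO against WT under IgG1.

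The 2 libraries that stood apart bear on these counts. Replicate 2 of B2mKO aPD1 was the highest of its group for Atf4, Chac1, Trib3, Asns and Psat1. WT IgG1 replicate 3 was the highest of its group for Atf4 and Psat1 and, at 23.9 CPM, the lowest for Sesn2. With both left out, the members called were 5 in B2mKO against WT under each antibody, 4 and 3 in Jak1KO against WT under IgG1 and aPD1, and 2 and 3 in B2mKO against Jak1KO. Antibody comparisons and interactions still gave 0. The share of all genes called without these libraries is not given here, so the changed counts cannot be taken as particular to the members.

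Markers of other cell types were set beside these values. Most fibroblast markers were higher in B2mKO than in WT tumours. Bulk RNA does not tell which cells held these mRNAs. Of 9 markers, 7 rose in B2mKO against WT under IgG1 and 6 under aPD1, and 0 fell. The summed level of the 9 was 13830 to 31070 CPM in B2mKO IgG1 against 6982 to 13250 CPM in WT IgG1, and 9728 to 22790 CPM against 4894 to 9785 CPM under aPD1. No marker was at 0 in any group, and Col3a1 was the highest. The B2mKO aPD1 library with the lowest sum, 9728 CPM, was replicate 2, the library with the highest Atf4, Chac1, Trib3, Asns and Psat1 of that group. This library differed in other ways too. It had the highest sums of its group for macrophage and monocyte markers (5737 CPM), endoplasmic reticulum chaperones and related factors (7418 CPM) and hypoxia genes (4948 CPM). In B2mKO IgG1 the lowest fibroblast sum, 13830 CPM, was in replicate 5. That library had the lowest Atf4 (304 CPM), Chac1 (16.1 CPM) and Trib3 (43.8 CPM) of its group. Its Psat1 (362 CPM) was the highest, and its Asns (202 CPM) lay between the others. In Jak1KO IgG1 the fibroblast sum was 7506 to 9842 CPM and in Jak1KO aPD1 8836 to 10060 CPM. Of the fibroblast markers, 0 and 3 rose against WT, with 1 lower under IgG1. The 3 became 1 without WT aPD1 replicate 1, 2 or 3 or Jak1KO aPD1 replicate 4. Of 8 endothelial markers, 5 rose in B2mKO against WT under aPD1 and 0 under IgG1. Their summed level was 116 to 234 CPM in B2mKO aPD1 against 106 to 162 CPM in WT aPD1, and 132 to 204 CPM against 95.2 to 155 CPM under IgG1, with none at 0. Of the 5 neutrophil markers tested, of 8 listed, 1 rose under each antibody (Mmp9) and 1 fell under aPD1 (Clec4d), while S100a8 and S100a9 did not pass. Their summed level, led by Mmp9, was 280 to 536 CPM in B2mKO IgG1 against 141 to 295 CPM in WT IgG1, and 348 to 531 CPM against 174 to 301 CPM under aPD1, and Ly6g was at 0 in both B2mKO groups. Mmp9 alone averaged 399 CPM of a mean sum of 421 in B2mKO IgG1, and 189 of 206 in WT IgG1. S100a8 averaged 0.451 and 0.423 CPM in these groups and S100a9 0.728 and 0.470, so the sum mostly follows Mmp9. In Jak1KO the sum was 180 to 251.4 CPM under IgG1 and 196 to 279 CPM under aPD1, with Ly6g and Retnlg at 0. Of the 4 adipocyte markers tested, of 7 listed, 1 fell in B2mKO under IgG1 (Fabp4) and 0 passed under aPD1. Their sum was 8.88 to 9.96 CPM in B2mKO IgG1 against 12.7 to 63.7 CPM in WT IgG1, and 6.65 to 25.88 CPM against 12.4 to 21.3 CPM under aPD1, with none at 0. The count of 1 ran up to 3 with 1 library left out. Summed macrophage and monocyte markers were at 2340 to 3684 CPM in B2mKO IgG1 against 1394 to 5726 in WT IgG1. Under aPD1 they were at 3195 to 5737 CPM against 2623 to 5987. T cell markers summed to 7.31 to 29.9 CPM against 6.79 to 17.2 under IgG1, and 13.35 to 33.96 against 10.2 to 58.7 under aPD1. In Jak1KO tumours, Atf4 and Chac1 were lower than in WT under both antibodies. The summed fibroblast level there lay inside the WT range under IgG1 and reached above it under aPD1. Summed macrophage and monocyte markers in Jak1KO were at 2424 to 3377 CPM under IgG1 and 2301 to 3739 CPM under aPD1. T cell markers in Jak1KO summed to 12.0 to 49.5 CPM under IgG1, against 6.79 to 17.2 in WT, and to 9.35 to 58.4 CPM under aPD1. The part of these cell types in the lower levels of the members was not tested in either mutant.

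The other genes of the pathway were taken from lists of its branches. Over all genes, 11.7% were called lower and 9.4% higher in B2mKO against WT under IgG1, and 10.5% and 9.86% under aPD1. In Jak1KO against WT these shares were 11% and 7.23% under IgG1, and 12.4% and 8.4% under aPD1. In B2mKO against Jak1KO they were 14% and 14.5%, and 13.6% and 15.1%. Several counts below, such as 1 of 9 genes, lie near these shares and say nothing particular about their list. The first branch is the biosynthetic output of ATF4: enzymes of serine, glycine, proline and one-carbon metabolism. Of the 10 such enzymes tested, Psat1 apart, 8 fell and 0 rose in B2mKO against WT under IgG1, with a median log2 fold change of -0.44. Under aPD1 6 fell and 0 rose, with a median of -0.43. The clearest were Gpt2, which makes alanine, at -0.79 under IgG1 and -0.55 under aPD1, Mthfd1l of mitochondrial folate metabolism at -0.47 and -0.63, Aldh18a1 of proline synthesis at -0.41 under IgG1, and Aldh1l2 at -0.64 under aPD1. The count of 8 was 4 without WT IgG1 replicate 5 or B2mKO IgG1 replicate 1 or 2, and 10 without both libraries that stood apart. In Jak1KO against WT, 2 fell and 0 rose under IgG1, and 2 fell and 2 rose under aPD1. Cth, which makes cysteine, was at -0.90 (lost in 7 of 18 alternatives) and -1.05, Gpt2 at -0.50 and -0.33, and Aldh18a1 at 0.32 under aPD1. The IgG1 count of 2 was 1 without WT replicate 1 or 5 or Jak1KO replicate 1, 3 or 4. Under aPD1 the 2 that fell became 1 without WT replicate 3 or Jak1KO replicate 1, and the 2 that rose became 1 without WT replicate 1, 2 or 5 or Jak1KO replicate 3, 4 or 5. Between the mutants, 6 of 10 under IgG1 and 5 of 10 under aPD1 were lower in B2mKO, among them Aldh18a1 at -0.66 and -0.70 and Shmt2, which interconverts serine and glycine, at -0.71 and -0.74.

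The cytosolic aminoacyl-tRNA synthetases, which charge tRNAs, form the next branch. Of 13 genes, 3 fell in B2mKO against WT under IgG1 (median -0.23) and 5 under aPD1 (median -0.20). Mars1 was at -0.33, Tars1 at -0.32 and Xpot, an exporter of tRNA counted with them, at -0.30 under IgG1, and Wars1 at -0.73, Tars1 at -0.42 and Aars1 at -0.40 under aPD1. Wars1 is also an interferon-induced gene. The IgG1 count ran from 1 without WT replicate 5 to 5 without WT replicate 2, 3 or 4, and was 7 without both libraries that stood apart. The aPD1 count was 3 without WT replicate 1 or B2mKO replicate 4. In Jak1KO against WT, 2 fell under IgG1 and 1 rose under aPD1, and the IgG1 count was 0 when any of WT replicates 1, 3 and 5 or Jak1KO replicates 1, 3 and 4 was left out, and 1 without Jak1KO replicate 5. Of 9 amino acid transporters, 1 fell in B2mKO under IgG1 (Slc38a2, -0.34, a call lost in 12 of 18 alternatives) and 4 under aPD1, among them the arginine and lysine carrier Slc7a1 at -0.79, Slc38a2 at -0.48 and the cystine carrier Slc7a11 at -0.88. In Jak1KO tumours 1 transporter fell under each antibody, Slc7a11 at -0.96 and -1.14.

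Among 10 other outputs of the response, 3 fell and 0 rose in each of the comparisons with WT. In B2mKO they were the lipoprotein receptor Vldlr at -1.99 and -1.97, the secreted glycoprotein Stc2 at -0.70 and -0.95, and the oxidase Ero1a at -0.88 and -0.98. The calls of Ero1a were lost in 10 and 5 of 18 alternatives. In Jak1KO they were the death receptor Tnfrsf10b at -1.05 and -0.77, Herpud1 of endoplasmic reticulum protein degradation at -0.78 and -0.45, and Vldlr at -0.999 and -0.77. The B2mKO count under IgG1 was 5 without WT replicate 2. Of 7 partners and regulators of ATF4, 1 rose and 1 fell in B2mKO under IgG1, the stress protein Nupr1 at 0.55 and the mTORC1 inhibitor Ddit4 at -0.78, and 1 fell under aPD1, Jdp2 at -0.33. These calls were lost in 5, 10 and 10 of 18 alternatives. In Jak1KO 1 rose and 2 fell under IgG1, and 1 rose and 3 fell under aPD1. Atf5, a related transcription factor, was at 0.46 and 0.55, Cebpd at -1.10 under IgG1, and Cebpb at -0.85 under aPD1.

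**Figure D3:**
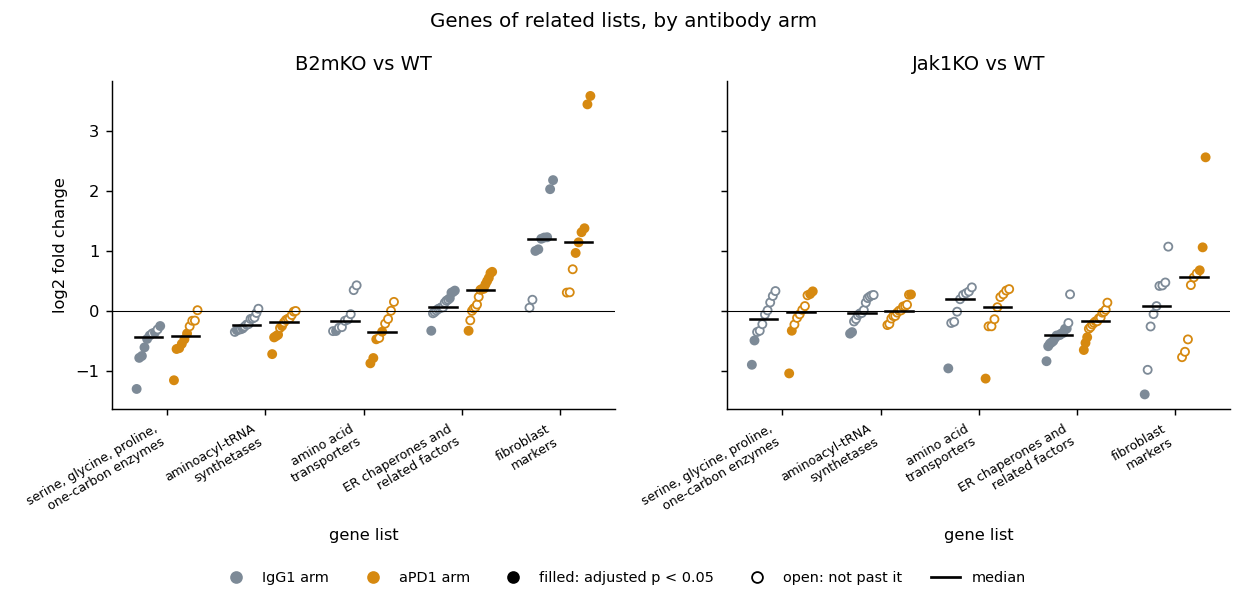
Log2 fold change of each gene in 5 lists (serine, glycine, proline and one-carbon enzymes; aminoacyl-tRNA synthetases; amino acid transporters; endoplasmic reticulum chaperones; fibroblast markers) for B2mKO and Jak1KO against WT under each antibody; filled points have an adjusted p under 0.05 and lines are list medians. In B2mKO tumours the enzyme list lies below 0 (median -0.44 under IgG1) and the fibroblast list above 0. In Jak1KO IgG1 13 of 15 chaperones and related factors are filled below 0.

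Upstream of ATF4, the mRNAs of 2 of the 4 eIF2 kinases, Eif2ak2 and Eif2ak3, differed between the mutants. Eif2ak2 (PKR), which senses double-stranded RNA and is itself induced by interferon, rose in B2mKO against WT under IgG1, at 0.91 ± 0.14 (edgeR adjusted p = 4.77e-05), and fell in Jak1KO, at -0.51 under IgG1 (edgeR adjusted p = 0.013) and -0.69 under aPD1 (edgeR adjusted p = 0.000782). Under aPD1 the B2mKO value was 0.39 with an edgeR adjusted p of 0.0489, a call that was lost in 14 of 18 alternatives. Eif2ak3 (PERK), the kinase of the endoplasmic reticulum, was at 0.53 and 0.47 in B2mKO against WT (edgeR adjusted p = 0.0192 and 0.0373, lost in 2 and 11 of 18 alternatives), and at 0.73 under both antibodies in B2mKO against Jak1KO. Eif2ak1 (HRI) and Eif2ak4 (GCN2) did not pass in any comparison. Of the whole list of 13 kinases, eIF2 and eIF2B subunits, phosphatase subunits and adaptors, 2 rose and 2 fell in B2mKO under IgG1 and 2 rose under aPD1. In Jak1KO 1 rose and 3 fell under IgG1, and 1 rose and 2 fell under aPD1, with Ppp1r15b, the constitutive partner of the eIF2 phosphatase, at -0.48 and -0.42.

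The PERK branch is shared with the unfolded protein response, whose chaperones and related factors were followed too, Xbp1, Edem1 and Sel1l among the latter. Of these 15 genes, 4 rose and 1 fell in B2mKO against WT under IgG1, and 7 rose and 1 fell under aPD1. In Jak1KO 13 fell under IgG1 and 4 under aPD1. Dnajc3, an inhibitor of eIF2 kinases, was at 0.31 and 0.37 in B2mKO and at -0.59 and -0.44 in Jak1KO, and 12 of 15 were higher in B2mKO than in Jak1KO under each antibody. The B2mKO count of 4 was 2 without WT IgG1 replicate 1 or 5 or B2mKO IgG1 replicate 1, and the Jak1KO aPD1 count of 4 was 2 without any of WT replicates 2, 3 and 5 or Jak1KO replicates 2 and 4. The Jak1KO IgG1 count of 13 ran from 9 to 13 with 1 library left out. Of 14 interferon gamma response genes, 11 fell in Jak1KO against WT under IgG1 and 14 under aPD1, while in B2mKO 3 rose under IgG1 and 11 fell under aPD1.

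Immediate early genes and hypoxia genes were followed because Atf3, Ppp1r15a, Ddit4 and Vldlr also answer to other stimuli. Of 14 immediate early genes, 3 rose and 2 fell in B2mKO under IgG1, 2 rose and 2 fell under aPD1, and Egr1 was at 2.15 and 1.87. In Jak1KO 5 fell under IgG1 and 7 under aPD1, with Junb at -0.72 and -0.93. The count of 5 was 2 or 3 without WT IgG1 replicate 1 or 3 or Jak1KO IgG1 replicate 1, 3 or 5. Of 13 hypoxia genes, 4 fell and 0 rose in B2mKO under IgG1 and 2 under aPD1, and 3 and 2 fell in Jak1KO. Ero1a is in this list and among the other outputs above, so its fall in B2mKO counts in both. Whether oxygen supply has a part in the member levels was not tested.

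How the members varied together inside groups, from library to library, was described next. Log2 CPM was centred on each group's mean over the 30 libraries and the 36 pairs were compared. Of these, 14 passed a two-sided permutation test of Pearson's r with 100000 resamples within groups and adjustment over the 36 pairs, all 14 with positive r, and the same 14 passed with Spearman's rho, which added 1 more. The share of pairs among all genes that would pass is not given here, so this count cannot be taken as particular to the members. The tightest pair was the amino acid enzymes Asns and Psat1, with r = 0.941 and rho = 0.902 (permutation p = 1e-05, the smallest these resamples can give; adjusted p = 0.00012), and r = 0.896 without the 2 libraries farthest from the median of Asns. Ddit3 and Ppp1r15a, the CHOP and GADD34 pair, reached r = 0.86 and rho = 0.878, and 0.871 without the 2 farthest libraries (permutation p = 1e-05 for both, adjusted p = 0.00012). Chac1 and Trib3 reached r = 0.854 and rho = 0.806, and 0.796 without the 2 farthest (same permutation p).

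Atf4 itself went with Trib3 (r = 0.766, rho = 0.725, permutation p = 4e-05 and 5e-05, adjusted p = 0.000288 and 0.000432), and r was 0.736 without the 2 farthest libraries. With Asns its r was 0.67, and 0.494 without the 2 farthest, so that part of this relation rests on those libraries. Asns and Psat1 did not follow Ddit3, Atf3 or Ppp1r15a: the 6 pairs had r from -0.129 to 0.088, 0 passed, and the smallest permutation-based adjusted p was 0.703. Without both libraries that stood apart these r ran from -0.381 to -0.041. Other pairs linked Asns and Ddit3 to Atf4 and Trib3. Psat1 passed with neither, at r = 0.535 with Atf4 and 0.419 with Trib3 (adjusted permutation p = 0.0997 and 0.143). Atf4 with Ddit3 had r = 0.507 and rho = 0.488 (adjusted permutation p = 0.0322 and 0.0358). Trib3 with Ddit3 had r = 0.654 and rho = 0.582 (adjusted permutation p = 0.00564 and 0.0121), and Trib3 with Asns r = 0.592 and rho = 0.528 (adjusted permutation p = 0.0166 and 0.0202). Without the 2 farthest libraries these r were 0.467, 0.628 and 0.37. Sesn2 had r from -0.386 to 0.362 over its 8 pairs and 0 past the threshold (smallest adjusted permutation p 0.128). Without both libraries that stood apart its range was -0.119 to 0.633. All members of a library share its depth and its mixture of cells, and the part of that mixture in these correlations was not tested.

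**Figure D4:**
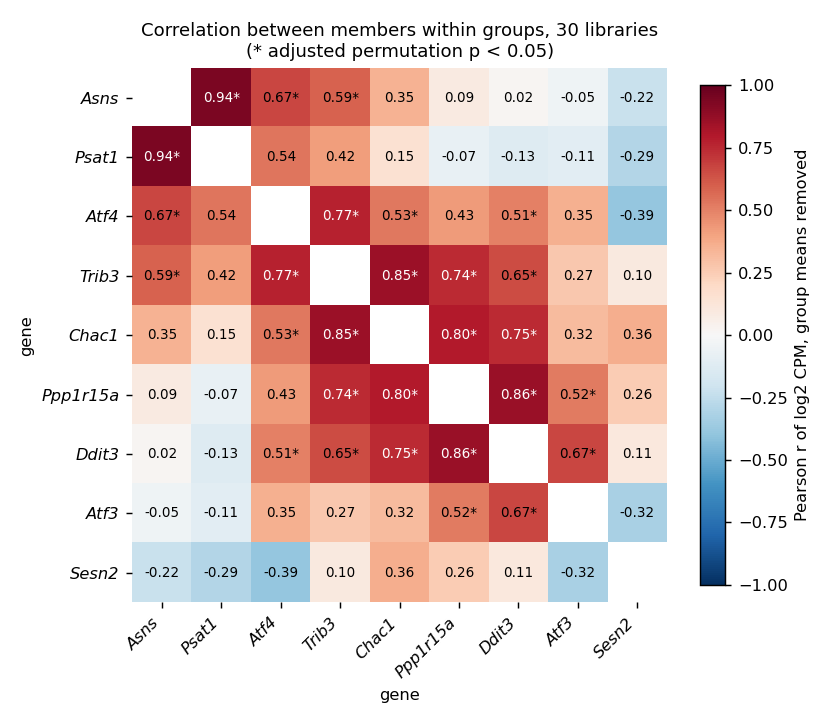
Pearson's r between the 9 genes over 30 libraries after group means were removed; stars mark an adjusted permutation p under 0.05. The pair Asns and Psat1 is at 0.941, and its cells with Ddit3, Atf3 and Ppp1r15a lie between -0.129 and 0.088.

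Among the 11978 genes with a mean of at least 1 CPM, those most like each member over the 30 libraries, by the same within-group r, were as follows. Asns was nearest to Gars, the glycyl-tRNA synthetase, at 0.981 and to Psat1 at 0.941, and Psat1 was nearest to Exosc2 at 0.946 and to Asns. Atf4 was nearest to Nradd at 0.925 and to Sars, the seryl-tRNA synthetase, at 0.918. Chac1 was nearest to Trib3 at 0.854 and to the growth arrest gene Gadd45a at 0.831, while Trib3 was nearest to Cyb5r1 at 0.875 and Cox6a2 at 0.874. Ppp1r15a was nearest to Gadd45a at 0.887 and Ier3 at 0.884, Ddit3 to Nfil3 at 0.897 and Ppp1r15a, and Sesn2 to Ptpn21 at 0.893 and Zfp777 at 0.892. Atf3 was nearest to Ccrl2 at 0.899 and Rgs1 at 0.878, both known from leukocytes. These are the highest of many values and are given as a description, with no test.

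Features that limit the counting of single members concern overlapping genes. Ddit3 lies at chr10:127290774-127296288 on the plus strand and overlaps Mars and Gm4189 on the minus strand, and the counting did not use strand. It also overlaps the second Ddit3 record, on the plus strand. Reads overlapping more than 1 gene were left unassigned, so the 0 counts of that record need not mean that no reads fell there. Atf4 lies at chr15:80255184-80257541 (plus), Chac1 at chr2:119351229-119354381 (plus), Trib3 at chr2:152337422-152344032 (minus) and Asns at chr6:7675169-7693254 (minus), with no overlapping gene. Psat1 lies at chr19:15904678-15947337 (minus), Ppp1r15a at chr7:45522916-45526268 (minus), Sesn2 at chr4:132492032-132510501 (minus) and Atf3 at chr1:191170296-191218039 (minus). Each of these last 4 overlaps 1 other annotated gene. All positions are GRCm38.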

How the data were processed

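RNA from MC38 tumour tissue was sequenced in 30 paired-end TruSeq libraries, per the labels' protocols. The authors deposited whole-number counts per gene, made with featureCounts 2.0.0 on Ensembl genes per the file headers, whose command used neither strand nor pair counting and left reads overlapping more than 1 gene unassigned. STAR 2.5.2a, FastQC 0.11.2, Cufflinks 2.2.1, edgeR 3.24.3 and build mm10 are named in the submitters' processing notes. The 30 tables per sample equalled the series table, and the header of 1 of them, WT aPD1 replicate 2, names another alignment. Counts without a gene symbol made up 0.0470% of the total. Replicates differed beyond sampling noise in all 60 pairs inside groups (chi-square per degree of freedom at least 6.5).

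edgeR 4.0.16 (R 4.3.3) was run on the deposited counts: filterByExpr by group (minimum count 10, total 15), TMM scaling (factors 0.939 to 1.043), 6 group means over all 30 libraries, the quasi-likelihood test, and p-values adjusted by Benjamini-Hochberg for 15505 genes with calls at 0.05. The SE was derived from each log2 fold change and its F statistic. CPM use the scaled library sizes, and correlations use log2 CPM with a prior count of 2. The fit was tested on simulated data. Alternatives used DESeq2 1.42.0, limma 3.58.1 voom, other filters, scalings and samples. Named are all members, B2m and Jak1, the 2 genes most like each member, up to 3 called genes with the smallest p per list and comparison, and the eIF2 kinases. Of those, the text prints a selection. Members and lists were chosen with earlier results of these data known. Replicate numbers were not taken to pair samples, as no label ties them, and whether they do is not known. Same-numbered libraries gave correlations of deviations from -0.587 to 0.464, with no comparison having every pair above 0.1. Only in Jak1KO aPD1 against IgG1 were all of them positive (0.094 to 0.355).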

Additional observations from a re-analysis of the deposited data

Results flagged for a closer look

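Of 54 sets of 5 libraries (9 genes in 6 groups), 4 had a highest library separated from the rest by more than Dixon's 95% critical value, where chance gives about 1 in 20. Atf4 stood at 651.6 CPM in WT aPD1 replicate 3. In B2mKO aPD1 replicate 2, Atf4 stood at 572.5 CPM and Trib3 at 139.2 CPM. Atf3 stood at 35.41 CPM in Jak1KO IgG1 replicate 4.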

How the results depend on the processing

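The 5 members called in B2mKO against WT under IgG1 were 5 under every alternative, and antibody comparisons and interactions gave 0 under every one. With only the groups compared in the fit, 2 members, Chac1 and Trib3, were called in B2mKO against WT under aPD1 (4 in all libraries; 4 or 5 with 1 library left out), 5 in Jak1KO against WT under aPD1 and 1 in B2mKO against Jak1KO under aPD1. DESeq2 called 4 in Jak1KO against WT under aPD1 and 2 in B2mKO against Jak1KO under IgG1, where voom called 2 as well, and without a filter on low counts 1 was called in B2mKO against Jak1KO under aPD1. Without WT IgG1 replicate 3 and B2mKO aPD1 replicate 2 together, 4 were called in Jak1KO against WT and 2 in B2mKO against Jak1KO under IgG1. Leaving out 1 library at a time gave 1 to 3 in Jak1KO against WT under IgG1, 1 to 4 under aPD1, 1 to 2 in B2mKO against Jak1KO under IgG1 and 1 to 3 under aPD1. The shares of all genes called are given for the main fit only, so these shifts cannot be taken as particular to the members. Their cause was not tested.

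Psat1 in Jak1KO against WT under IgG1, at -0.0149, changed sign in voom (0.0064), with the replicate block (0.0043), without both libraries named above (0.0455) and in 4 of the fits without 1 library (-0.1115 to 0.0645 over these fits). Ddit3 in B2mKO against WT, at -0.0442 under IgG1 and -0.1212 under aPD1, changed sign in 3 and 1 of the fits without 1 library (-0.1672 to 0.0736 under IgG1, -0.2665 to 0.0174 under aPD1). None of these values was called. With the replicate number as a block, 3 members rather than 2 were called in Jak1KO against WT under aPD1, Ddit3 being added (-0.69, edgeR adjusted p = 0.0294), and the other counts of members called were as without it. Of 1782 alternative values of 99 printed fold changes, 115 lost a call, 27 gained one and these 11 changed sign. Of 64 printed list-gene values, 17 lost the call somewhere, most often Eif2ak2 in B2mKO under aPD1. The edgeR legacy fit, the list counts under each alternative and their lists were added after the data were seen. The number of correlated pairs was 14 with other size factors and with a prior count of 0.5, and 15 without both libraries.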
